A study of Bos taurus with 6 samples.

Results

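The genes of the extracellular matrix and its remodelling were followed in bovine cumulus cells, which surround the oocyte inside the antral follicle and nourish it. All collagens, laminins, tissue inhibitors of metalloproteinases (TIMPs) and matrix metalloproteinases (MMPs) with a single gene symbol in the platform annotation were taken, together with nidogens, fibronectin, fibrillin, elastin, matricellular proteins, plasminogen activators and SERPINE2. This gave 57 genes and 111 probe sets, out of 9155 genes and 24016 probe sets. Each gene was read from its probe set with the highest mean over the 6 arrays. The array carries more than 1 probe set for 32 of the 57 genes. In 22 of the 32 another probe set differed in its call or did not share the sign. These are given for called genes and for others with a sizeable difference.

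The animals were crossbred Bos indicus x Bos taurus cows, and RNA was extracted from pools of mechanically removed cumulus cells. In 3 arrays (large_follicle, replicates 1 to 3) the complexes, called competent by the submitters, came from follicles of 8 mm or more, and in the other 3 (small_follicle) the complexes, called incompetent, came from follicles of 1 to 3 mm. All complexes had compact cumulus layers and were otherwise selected alike, by their cytoplasm. The replicates are titled biological. The size of each pool was not stated, and p-values rest on the spread between pools alone. Values are log2 signals of the Affymetrix bovine array, differences are large-follicle minus small-follicle means on that scale, and 3 arrays per group limit the precision.

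A basement membrane is a thin sheet of collagen IV, laminin, nidogen and heparan sulphate proteoglycan on which epithelial cells rest. In the follicle it separates the granulosa layer from the theca, and bovine granulosa cells are also known to deposit patches of such material between themselves as the follicle grows. Interstitial matrix, made of fibrillar collagens, collagen VI, fibronectin, fibrillin and elastin, is mainly the product of theca and stroma cells. Metalloproteinases cut these proteins, TIMPs block the metalloproteinases, and plasminogen activators start the plasmin cascade that both degrades matrix and activates proteases.

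Of 10 granulosa and cumulus markers 9 had a mean signal above the median over probe sets. AMH, for example, read between 10.89 and 11.07 in the 6 arrays. The oocyte genes GDF9 (4.56 to 4.91) and BMP15 (3.55 to 4.10) were dim, below the median over probe sets of the mean signal (5.67), and of 6 oocyte genes measured 0 were called in limma's fit (0 at an unadjusted p under 0.05). As a sign of RNA quality, the 3' probe sets of 6 bovine control transcripts exceeded their 5' probe sets by 1.98 ± 0.19 (SD, n = 3) in large-follicle and 2.46 ± 0.27 (SD, n = 3) in small-follicle arrays. This index moved with the groups (2-sided p = 0.1 by an exact permutation test, which cannot go lower with 3 arrays against 3). The groups were only just apart, with large-follicle replicate 1 at 2.15 and small-follicle replicate 3 at 2.16. Of 10 granulosa and cumulus markers 6 were higher and 1 was lower (70% called, against 15.4% of all genes). Their differences ran from -1.20 to 2.14, so the markers did not move alike. Their summed linear signal, in which the brightest genes weigh most, ran from 45800 to 48280 in large-follicle and from 27648 to 31434 in small-follicle arrays. The part of either in the differences below was not tested, beyond fits with the index as a covariate. In pooled cells, fewer cells of a type and less RNA per cell cannot be told apart.

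In limma's fit over all probe sets, with Benjamini-Hochberg adjustment and a threshold of 0.05, 10 of the 57 matrix genes passed. The inhibitors TIMP1 and TIMP2 rose in large follicles. FBN1, COL18A1, COL6A1, MMP16, LAMC1, COL4A4, TIMP3 and SPARC fell. The called share, 17.5%, lay near the 15.4% of all 9155 genes. By direction, 2 of 57 (3.51%) were higher, against 7.08% of all genes, and 8 of 57 (14%) were lower, against 8.3%. Of the 111 probe sets of these genes 3 were higher and 11 lower, while 12.9% of all 24016 probe sets were called, 5.72% higher and 7.16% lower. The groups did not overlap in 19 of the 57 genes (33.3%), against 36.5% of all genes. The median difference was -0.0067 over the 57 genes and 0.0067 over all genes. Leaving out large-follicle replicate 1 left 0 higher calls, and leaving out large-follicle replicate 2 or small-follicle replicate 1 or 2 left 1. The lower calls numbered 5 when large-follicle replicate 2 was left out and 4 when replicate 3 of that group was. A fit that took the RNA quality index as a covariate called 0 members higher and 2 lower, FBN1 and COL6A1. That fit called 99 probe sets higher and 116 lower in all.

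**Figure D1:**
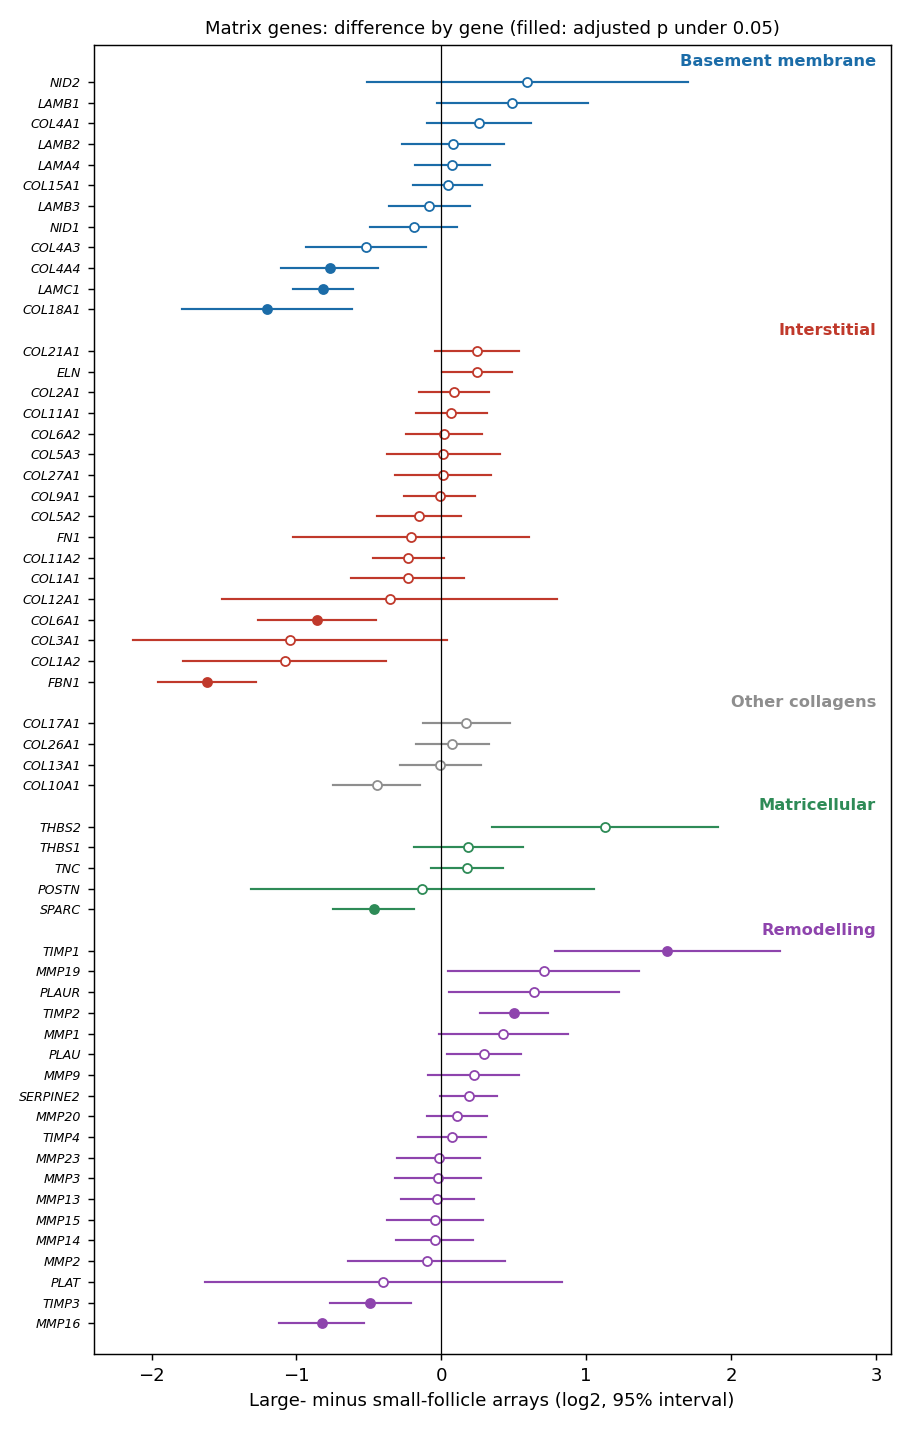
The difference between large- and small-follicle arrays on the log2 scale (x axis) for each of the 57 genes (y axis, grouped by class), with 95% intervals from limma. Filled points passed the 0.05 threshold: 2 lie to the right of 0 (TIMP1, TIMP2) and 8 to the left.

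Among basement membrane genes 12 were measured, of which 0 were higher, 3 were lower and 9 did not pass in limma's fit. At an unadjusted p under 0.05 the counts were 0 higher and 4 lower. LAMC1, the gamma chain shared by most laminins, read 9.81, 9.75 and 9.75 in large-follicle arrays 1 to 3 and 10.61, 10.50 and 10.65 in the small-follicle arrays. All small-follicle arrays were higher and the arrays of a group lay within 0.15 of each other. The difference was -0.82 ± 0.09 (log2 ± SE, limma adjusted p = 0.00194), which is 1.76-fold higher in small follicles. Of its other 5 probe sets, 3 also fell (-0.73, -0.76 and -0.46), while -0.41 and 0.29 did not pass. The mean over its probe sets was -0.48 and was called.

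LAMB1, a beta chain that assembles with LAMC1 in the same trimers, did not pass the test. It read 8.40, 8.92 and 7.89 in large-follicle arrays and 7.85, 7.85 and 8.04 in small-follicle arrays, so that large-follicle replicate 3 lay inside the small-follicle range. Its difference of 0.49 ± 0.23 (limma adjusted p = 0.214) did not pass, and without large-follicle replicate 3 it was 0.75 and passed (adjusted p = 0.0363). The LAMB1 to LAMC1 ratio within an array was higher in every large-follicle array, by 1.31 on the log2 scale (exact permutation test, 2-sided, p = 0.1, the smallest possible). This pair was picked after its values were seen. The groups lay further apart in LAMC1 than they overlapped in LAMB1. The outcome of this test was therefore fixed in advance and adds nothing to the LAMC1 call. The other laminin chains measured, LAMB2 at 0.08 ± 0.15, LAMA4 at 0.08 ± 0.11 and LAMB3 at -0.08 ± 0.12, did not pass, and LAMA4 and LAMB3 were below the median signal.

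Of the 3 measured chains of collagen IV, the network-forming collagen of basement membranes, COL4A4 fell and COL4A1 and COL4A3 did not pass. COL4A4 read 7.71, 8.22 and 8.05 against 8.79, 8.61 and 8.89, without overlap, a difference of -0.77 ± 0.15 (limma adjusted p = 0.0126). Its second, dimmer probe set read 0.07, and the mean of both gave -0.35, which did not pass. COL4A3, which assembles with COL4A4 and is its direct neighbour among protein-coding genes in the RefSeq annotation of ARS-UCD2.0, read 6.31, 6.25 and 6.27 against 6.41, 7.20 and 6.77. The groups did not overlap, but the difference of -0.52 ± 0.18 did not pass (limma adjusted p = 0.106), and its second probe set, below the lower quartile of signals, differed by 0. COL4A1, a chain of the most widespread collagen IV trimer, read 9.94, 9.97 and 9.87 against 9.30, 9.78 and 9.92, and large-follicle replicate 3 lay inside the small-follicle range. Its difference, 0.26 ± 0.16, did not pass (limma adjusted p = 0.346). The ratio of COL4A1 to COL4A4 was higher in all large-follicle arrays, by 1.03 (exact permutation test, 2-sided, p = 0.1). This pair was again picked after its values were seen. The groups lay further apart in COL4A4 than they overlapped in COL4A1, so this outcome too was fixed in advance. It adds nothing to the COL4A4 call. For COL4A3 to COL4A4 the ratio overlapped between the groups and averaged 0.25 higher in large follicles (p = 0.4 by the same permutation test).

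COL18A1, whose C-terminal fragment is endostatin, showed the largest difference of the basement membrane class. It read 3.69, 3.52 and 3.19 against 5.19, 4.71 and 4.11, without overlap, a difference of -1.20 ± 0.25 (limma adjusted p = 0.0193), or 2.30-fold higher in small follicles. The large-follicle signals lay under 3.83, the lower quartile of mean signals over probe sets, where the size of a difference is uncertain. The call was lost without large-follicle replicate 2 (-1.23) or 3 (-1.065) and without small-follicle replicate 2 (-1.18), and with the index as a covariate the value was -0.53. NID2, a nidogen that links laminin to collagen IV, read 8.42, 8.08 and 6.77 against 6.35, 7.19 and 7.95, spreading over 1.65 within large follicles and 1.6 within small ones. Its difference of 0.59 ± 0.48 did not pass. NID1 (-0.19) and COL15A1 (0.04) were below the lower quartile of signals.

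Among interstitial genes 17 were measured, of which 0 were higher, 2 were lower and 15 did not pass in limma's fit, with 1 higher and 3 lower at an unadjusted p under 0.05. FBN1, the fibrillin of extracellular microfibrils, which also binds latent TGF-beta, read 6.87, 7.01 and 6.61 against 8.70, 8.29 and 8.35. Every small-follicle array lay at least 1 log2 unit above every large-follicle array. The difference of -1.62 ± 0.15, 3.07-fold higher in small follicles, kept its call in each of 19 other fits at the same threshold, including the one with the index as a covariate (-1.54, limma adjusted p = 0.0478). It was the only one of the 10 called members to do so.

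COL6A1, a chain of the beaded-filament collagen VI, read 8.08, 8.37 and 8.15 against 8.83, 8.88 and 9.47, without overlap. The difference was -0.86 ± 0.18 (limma adjusted p = 0.0172). The call was lost without large-follicle replicate 1 (-0.80) or 3 (-0.835), and its dimmer probe sets read 0.01 and -0.003. The mean over its probe sets was -0.28 and did not pass, and with the index as a covariate the value was -1.40. COL6A2, its direct neighbour among protein-coding genes and its partner chain, read 6.28, 5.91 and 6.04 against 6.05, 6.05 and 6.07 and differed by 0.02 ± 0.11. The interval of that difference ran from -0.24 to 0.28.

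The fibrillar collagens held 9 measured genes and 0 calls in limma's fit, with 0 higher and 1 lower at an unadjusted p under 0.05. COL1A2, a chain of collagen I, read 5.07, 4.44 and 4.23 against 5.65, 5.08 and 6.25, without overlap, and its difference of -1.08 ± 0.31 missed the threshold (limma adjusted p = 0.0539). It passed without large-follicle replicate 1 (-1.325) or small-follicle replicate 2 (-1.37). COL3A1, the fibrillar collagen III, read 6.22, 4.89 and 4.82 against 5.85, 5.88 and 7.33. Large-follicle replicate 1 lay above 2 of the small-follicle arrays, and the difference of -1.04 ± 0.47 did not pass (limma adjusted p = 0.201). COL1A1, the other chain of collagen I, read 6.52, 5.99 and 6.69 against 6.59, 6.64 and 6.67 and differed by -0.23 ± 0.17, with an interval from -0.62 to 0.16. The other 6 fibrillar collagens lay between -0.23 (COL11A2) and 0.09 (COL2A1), and COL27A1, at 0.01, read -0.42 in its second probe set.

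Of the remaining interstitial genes, FN1, the fibronectin gene, read 5.50, 4.76 and 4.12 against 4.62, 4.80 and 5.58, a low signal with full overlap and a difference of -0.21 ± 0.35 (0.14 in its second probe set). ELN, elastin, differed by 0.25 ± 0.10 without overlap and did not pass (limma adjusted p = 0.171). COL21A1, a collagen that associates with fibrils, was bright, at 12.06, 12.07 and 11.76 against 11.56, 11.73 and 11.86, and its 0.25 ± 0.13 did not pass. COL12A1 (-0.36 ± 0.50, with 0.26 in another probe set) and COL9A1 (-0.01 ± 0.11) did not pass either. Outside both classes, the collagens COL10A1, COL13A1, COL17A1 and COL26A1 held 0 calls in limma's fit, with 0 higher and 1 lower (COL10A1, -0.45) at an unadjusted p under 0.05.

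Set side by side, basement membrane and interstitial genes did not separate. The median difference was -0.02 over the 12 basement membrane genes and -0.16 over the 17 interstitial genes, against 0.0067 over all genes. The medians lay 0.14 apart. A related quantity, the class medians of signal minus the gene's mean set against each other within an array, varied between arrays of a group. Its pooled SD of 0.11 describes single arrays and is not the error of the 0.14. Leaving out large-follicle replicate 2 turned the difference of 0.14 to -0.048, leaving out replicate 3 of that group gave -0.012, and leaving out replicate 1 gave 0.29. Without small-follicle replicate 3 it was 0.068, and with the index as a covariate -0.093. Among genes above the median signal, the medians were 0.08 over 7 basement membrane genes and 0.01 over 11 interstitial genes. Both classes held only lower calls, 25% and 11.8% of their genes, beside 8.3% lower of all genes.

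**Figure D2:**
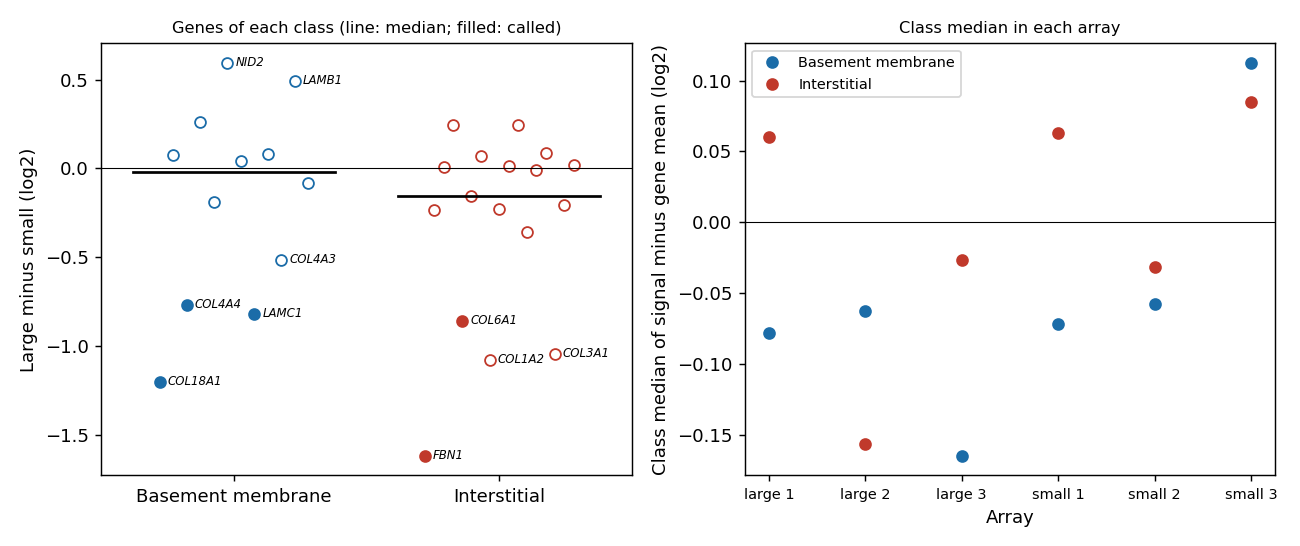
Left, the log2 difference between large- and small-follicle arrays (y axis) for each basement membrane and interstitial gene, with the class median as a line (-0.02 and -0.16) and called genes filled. Right, the median over the class of signal minus the gene's mean (y axis, log2) in each array (x axis), where the order of the classes changes from array to array.

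Matricellular proteins modulate the contact of cells with matrix without being part of its scaffold, and of 5 measured, 1 fell and 4 did not pass. The called share of 20% rests on 5 genes and stands beside 15.4% of all genes. SPARC, which binds collagens, read 9.54, 9.68 and 9.57 against 9.95, 9.94 and 10.30, without overlap. Its difference of -0.47 ± 0.12 was close to the threshold (limma adjusted p = 0.0408) and was lost without any 1 of the 6 arrays, with values from -0.53 to -0.35. With the index as a covariate the value was -0.76. THBS2, a thrombospondin that inhibits angiogenesis, read 10.21, 9.17 and 9.43 against 7.77, 8.73 and 8.92. All large-follicle arrays were higher, but the spread within each group exceeded 1 log2 unit and the difference of 1.13 ± 0.34 did not pass (limma adjusted p = 0.0667). THBS1, the related thrombospondin, was among the bright members at 13.02, 12.89 and 12.68 against 12.33, 12.79 and 12.91. It differed by 0.19 ± 0.16, and its other 5 probe sets, from -0.34 to 0.42, did not pass. POSTN, periostin, differed by -0.13 ± 0.52 and TNC, tenascin C, by 0.18 ± 0.11, with -0.46 in its second probe set, which did not pass.

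The inhibitors of metalloproteinases changed in both directions, with TIMP1 and TIMP2 rising, TIMP3 falling and TIMP4 not passing the test. TIMP1, a secreted inhibitor and a known product of granulosa cells, read 11.02, 10.13 and 10.46 against 8.25, 9.08 and 9.60. The groups did not overlap although small-follicle arrays spread over 1.35. The difference was 1.56 ± 0.34 (limma adjusted p = 0.0211), 2.95-fold higher in large follicles, and its second probe set gave 1.77 and also passed. The call was lost without large-follicle replicate 1 (1.32) or 3 (1.60) or small-follicle replicate 2 (1.61), and with the index as a covariate (1.18).

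TIMP2, which also takes part in the activation of MMP2 by MMP14 at the cell surface, read 10.51, 10.66 and 10.47 against 9.97, 10.16 and 10.01. Its arrays were tight, with an SD of 0.10 in both groups, and the difference was 0.50 ± 0.10 (limma adjusted p = 0.0168). The call was lost without large-follicle replicate 1 (0.52) or 2 (0.44) or small-follicle replicate 1 (0.46), and 2 further probe sets, at 0.22 and 0.35, did not pass. TIMP3, the inhibitor that binds to the matrix itself, read 6.71, 6.83 and 6.78 against 7.18, 7.11 and 7.5. It fell by 0.49 on the log2 scale (SE 0.12, limma adjusted p = 0.0342), a call lost without any 1 of the 6 arrays (-0.57 to -0.37). The ratio of TIMP1 to TIMP3 was 2.05 higher in large follicles and that of TIMP2 to TIMP3 was 0.99 higher, without overlap (exact permutation tests, 2-sided, p = 0.1 each, the smallest possible, pairs picked after their values were seen). TIMP1 and TIMP2 lay higher and TIMP3 lower, each without overlap. The outcome of these 2 tests was therefore fixed in advance and adds nothing to the calls. TIMP4 was dim and differed by 0.08 ± 0.10.

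**Figure D3:**
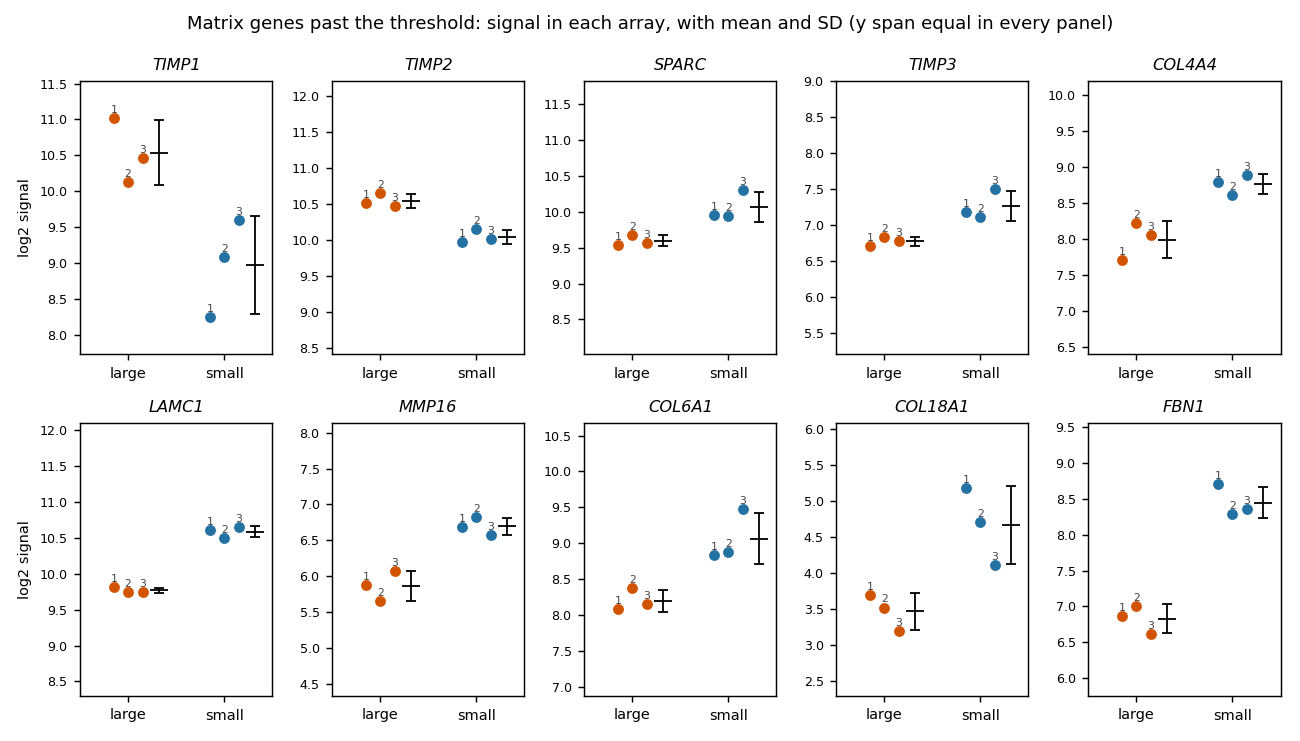
The log2 signal (y axis, with the same span in every panel) of the 10 called genes in each array, numbered by replicate, for large-follicle (orange) and small-follicle (blue) arrays, with mean and SD (n = 3). In each panel the groups do not overlap, and TIMP1 and COL18A1 have the widest spread within small-follicle arrays.

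Of 11 metalloproteinases, 0 rose, 1 fell and 10 did not pass in limma's fit, with 1 higher and 1 lower at an unadjusted p under 0.05. The 9.09% lower in that fit lay near the 8.3% lower of all genes. MMP16, a membrane-bound metalloproteinase, read 5.88, 5.65 and 6.07 against 6.68, 6.82 and 6.58, without overlap. The difference was -0.83 ± 0.13 (limma adjusted p = 0.00606), and the call held without any 1 array (-0.93 to -0.72) but not with the index as a covariate (-0.62). Its other probe sets read -0.31 and -0.01 and did not pass, and the mean over its probe sets was -0.38 and was called. MMP19, known from growing and ovulating follicles, read 5.16, 4.82 and 4.17 against 3.98, 3.56 and 4.49 and differed by 0.71 ± 0.29 (limma adjusted p = 0.158), with -0.21 in a second probe set below the lower quartile of signals. MMP2, the gelatinase A gene, was dim, at 3.84 in each large-follicle array and 3.75, 3.51 and 4.56 in small-follicle arrays. MMP14, the membrane-bound activator of MMP2, differed by -0.05 ± 0.12, with an interval from -0.31 to 0.22. MMP1 (0.43 ± 0.19, without overlap), MMP13 and MMP20 were below the lower quartile of signals, MMP3 and MMP9 below the median, and MMP15 and MMP23 differed by -0.04 and -0.02.

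In the plasminogen activator system 0 of 4 genes passed limma's test, with 2 higher and 0 lower at an unadjusted p under 0.05. PLAU, urokinase, read 6.54, 6.25 and 6.30 against 6.17, 6.02 and 6.02, higher in all large-follicle arrays by 0.29 ± 0.11 (limma adjusted p = 0.131). PLAUR, its receptor, read 6.24, 5.56 and 5.31 against 5.10, 4.69 and 5.40 and differed by 0.64 ± 0.25 (limma adjusted p = 0.15). PLAT, tissue plasminogen activator, varied most among all 57 genes within groups. It read 8.08, 6.65 and 5.76 against 6.62, 7.23 and 7.84, with full overlap and a difference of -0.40 ± 0.54. SERPINE2, protease nexin 1, which inhibits plasminogen activators and thrombin, was bright and tight at 14.05, 13.99 and 14 against 13.81, 13.83 and 13.83. The groups did not overlap, but the 0.19 ± 0.09 did not pass (limma adjusted p = 0.202).

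Some matrix genes varied widely between arrays of the same group. The median SD pooled over both groups was 0.18 over the 57 genes and 0.14 over all genes. By this SD, 14 of the 57 (24.6%) lay among the top 5% of all 9155 genes. PLAT (0.93), POSTN (0.89), COL12A1 (0.88), NID2 (0.84) and COL3A1 (0.82) led this order, and only 0.317% of all genes had a larger value than PLAT. At the other end, 17 of the 57, among them SERPINE2, LAMC1 and TIMP2, had a smaller SD than over 50% of all genes. Of these 14 genes, 11 were highest both in large-follicle replicate 1 among large-follicle arrays and in small-follicle replicate 3 among small-follicle arrays. That was so for 16 of all 57 members (28.1%), against 7.13% of all genes. The share among the other genes in the top 5% by SD was not taken. The pattern is thus not shown to be particular to matrix genes among equally variable ones. POSTN, for example, read 7.45, 6.36 and 5.31 in large-follicle arrays and 5.81, 6.54 and 7.16 in small-follicle arrays, so that replicates of a group differed by up to 2.14.

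Of the leukocyte markers, 7 of 9 measured were highest in both large-follicle replicate 1 and small-follicle replicate 3 of their groups. The same held for 3 of 10 stroma and smooth muscle markers, 0 of 6 theca and 0 of 8 endothelial markers. The mean deviation of the stroma list was alike in large-follicle replicates 1 and 2 (0.25 and 0.24), and the theca and endothelial lists were lowest in small-follicle replicate 3 (-0.27 and -0.15). The 3 stroma genes were PDGFRA, DCN and LUM. DCN and LUM, small proteoglycans that bind collagen fibrils and also stand in the proteoglycan list below, read 5.93 and 8.58 in large-follicle replicate 1 and 6.42 and 9.07 in small-follicle replicate 3. Among stroma and smooth muscle markers all 10 were measured, 2 were higher (TAGLN and CNN1), 0 were lower, and their summed linear signal ran from 1634 to 2042 in large-follicle and from 1272 to 2153 in small-follicle arrays. PDGFRB, a receptor of pericytes and stroma cells, read 3.59 to 4.02 in all arrays. Leukocyte markers (9 of 10 measured, 2 higher and 0 lower) summed to between 260.4 and 647 in large-follicle arrays and between 208.5 and 341 in small-follicle arrays. CD14, a monocyte receptor, read 6.70, 5.60 and 4.31 against 4.23, 4.12 and 5.21. PTPRC was below the lower quartile of signals. Endothelial markers were all 8 below the median signal, 1 was lower (TEK, -0.57), and they summed to 156 to 172 against 139 to 162. Theca markers (6 measured, 0 called, 1 higher at an unadjusted p under 0.05) summed to 2016 to 2116 against 1644 to 2375. CYP17A1, the theca enzyme of androgen synthesis, read 4.61 to 5.38 over all arrays. For these marker counts, 7.08% of all genes were higher and 8.3% lower. The part of other cells in the differences of the matrix genes was not tested.

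With large-follicle replicate 1 and small-follicle replicate 3 both left out, an alternative chosen after the data were seen, 1 member was called higher (TIMP1, 1.63) and 6 lower in 2 against 2 arrays. COL3A1 then read -1.01 ± 0.17 and passed (limma adjusted p = 0.0148), as did COL1A2 at -1.03 (adjusted p = 0.045). FBN1 (-1.685), LAMC1 (-0.805), COL18A1 (-1.595) and MMP16 (-0.89) were called as well. TIMP2, COL6A1, COL4A4, TIMP3 and SPARC lost their calls, at 0.50, -0.595, -0.565, -0.34 and -0.32.

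**Figure D4:**
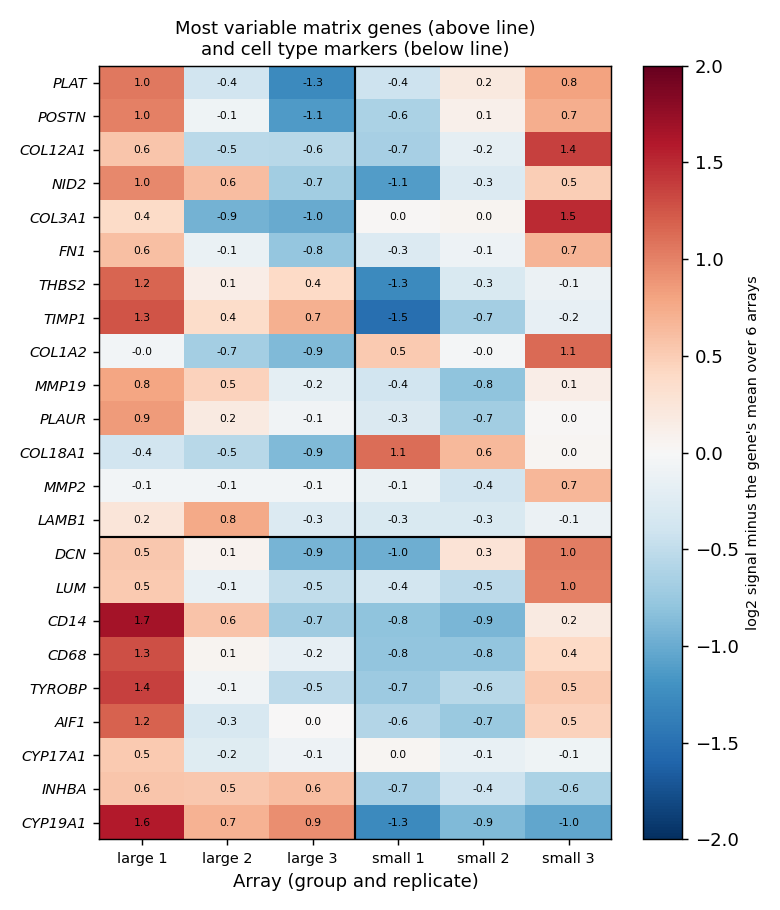
Log2 signal minus the gene's mean over the 6 arrays (colour and printed value), with arrays in columns, for the 14 matrix genes most variable within groups (above the line) and markers of stroma, leukocytes, theca and granulosa (below it). Of the 14 matrix genes 11, and DCN, LUM and the 4 leukocyte markers (CD14, CD68, TYROBP, AIF1), are highest in large 1 and small 3 of their groups, while INHBA and CYP19A1 follow the groups. The markers shown are a selection. In the full lists 3 of 10 stroma and smooth muscle markers and 7 of 9 leukocyte markers had this pattern. So did 0 of 6 theca markers and 0 of 10 granulosa and cumulus markers. Of the latter 6 were called higher, 1 was called lower and 3 did not pass.

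Other genes of the matrix pathway were read from lists that share no gene with the 57, and 17 of 99 (17.2%) passed limma's test, near the 15.4% of all genes. In the endoplasmic reticulum, collagen chains are hydroxylated and folded, and of 16 measured genes of this step 3 rose, 1 fell and 12 did not pass (25% called). P4HA1, a catalytic subunit of prolyl 4-hydroxylase, read 12.03, 12.04 and 11.83 against 10.99, 11.27 and 11.01, a rise of 0.88 ± 0.12. PLOD1, a lysyl hydroxylase, rose by 0.54 ± 0.09 (0.36, also called, as the mean of its probe sets) and P4HA2 by 0.38 ± 0.09, whereas FKBP10, a collagen chaperone, fell by 0.51 (SE 0.11). P4HA2 lost its call without any 1 array (0.345 to 0.42), and FKBP10 lost its own without large-follicle replicate 1 (-0.50) or 2 (-0.43) or small-follicle replicate 1 (-0.50), 2 (-0.535) or 3 (-0.485). SERPINH1, the collagen-specific chaperone HSP47, did not pass at 0.23 ± 0.10. In the maturation of collagen outside the cell, 1 of 7 rose: PCOLCE, which enhances the removal of the procollagen C-propeptide, read 10.19, 10.17 and 9.88 against 8.53, 8.61 and 8.91, a rise of 1.40 ± 0.14 (limma adjusted p = 0.00132).

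Of 6 further basement membrane genes 2 fell (33.3%) and 4 did not pass, beside 8.3% lower of all genes. HSPG2, or perlecan, fell by 0.79 (SE 0.13), and FBLN1, a fibulin that binds nidogen and laminin, read 6.19, 5.98 and 6.81 against 7.64, 7.52 and 7.53, a difference of -1.24 ± 0.19. The mean over the probe sets of FBLN1 was -0.70 and was called. Of 17 matrix receptors and their signal partners, 0 rose and 4 fell in limma's fit, with 0 higher and 5 lower at an unadjusted p under 0.05. The 23.5% lower stand beside 8.3% lower and 7.08% higher of all genes. ITGAV and ITGB3, which pair as an integrin that binds fibronectin, thrombospondin and periostin, fell by 0.71 (SE 0.12) and 0.69 (SE 0.15). ITGA4, an integrin chain for fibronectin and VCAM1, fell by 0.75 (SE 0.09) at a low signal, and PTK2, the focal adhesion kinase, fell by 0.44 (SE 0.11). ITGB3 lost its call without large-follicle replicate 2 (-0.70) or 3 (-0.60) or small-follicle replicate 2 (-0.55) or 3 (-0.71), and PTK2 without large-follicle replicate 1 (-0.425) or 2 (-0.37) or small-follicle replicate 1 (-0.40) or 2 (-0.42). The means over their probe sets, -0.16 for ITGB3 and -0.12 for PTK2, did not pass either. PTK2 also lost its call after quantile normalization (-0.42, limma adjusted p = 0.0528) and cyclic loess (-0.40, adjusted p = 0.0555). ITGB1, the beta chain common to most laminin and collagen receptors, read 12.32 to 12.67 over all arrays and did not pass (-0.15 ± 0.11).

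Among 11 partners of elastic fibres and microfibrils, MFAP2 rose by 0.52 ± 0.11 and MFAP3 fell by 0.55 (SE 0.09). These 2 calls (18.2%) stand beside 15.4% called of all genes. The mean over the probe sets of MFAP3 was -0.31 and did not pass. MFAP2 lost its call without large-follicle replicate 2 (0.52) or 3 (0.49) or small-follicle replicate 1 (0.43) or 2 (0.54). Of 18 small leucine-rich proteoglycans and matricellular genes, FMOD, a collagen-binding proteoglycan, rose by 0.98 ± 0.14, while SPARCL1, the closest relative of SPARC, fell by 1.44 (SE 0.25) and MGP by 0.78 (SE 0.13). The called share of this list, 16.7%, lay near the same 15.4%. The mean over the probe sets of MGP was -0.48 and was called. In a list of 15 genes of the plasminogen system, protease inhibitors and other serpins, 1 fell (6.67%) and 14 did not pass. This was SERPINF1, a member of the serpin family. SERPINF1 read 3.47, 3.53 and 3.63 against 4.58, 4.74 and 5.21, a difference of -1.30 ± 0.16. Its large-follicle signals lay under the lower quartile of 3.83, so the size of this difference is uncertain. SERPINF1 kept its call with the index as a covariate, which called 1 of the 17 partners. Of 9 ADAM and ADAMTS proteases 0 passed limma's test, with 1 higher and 1 lower at an unadjusted p under 0.05.

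**Figure D5:**
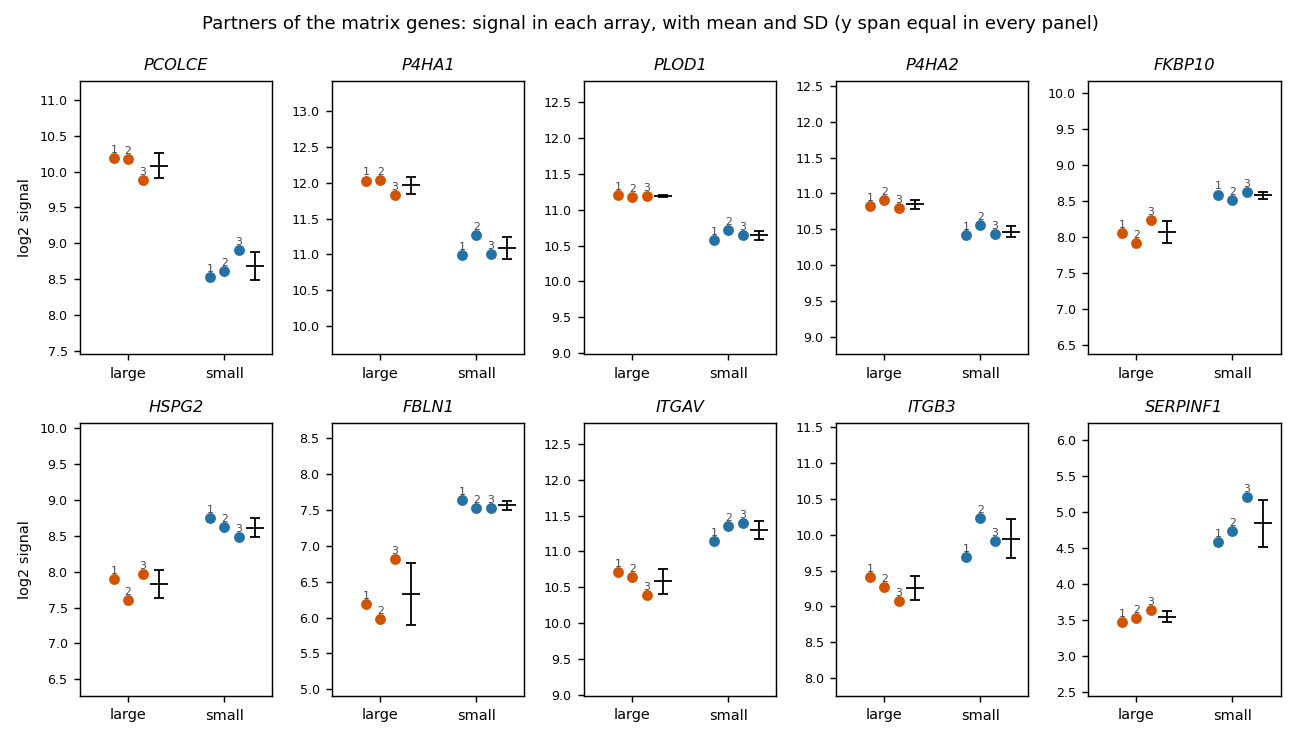
The log2 signal (y axis, equal span in every panel) of 10 called genes that process, bind or border the matrix, in each array, with mean and SD (n = 3). PCOLCE, P4HA1, PLOD1 and P4HA2 were higher in large-follicle arrays (orange) and the other 6 were higher in small-follicle arrays (blue), without overlap.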

How the data were processed

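Per the labels, biotin-labelled RNA of pooled cumulus cells was hybridised to 6 arrays. The authors deposited log2 signals per probe set, and the submitters' processing notes name RMA as the method. For its software and version nothing was found in the sources used here. RMA compresses differences of dim probe sets and gives no detection call, so no filter was used. Genes were named from the platform annotation, and all 57 members matched RefSeq (ARS-UCD2.0, names and neighbours only). Sequences were not analysed here.

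limma 3.58.1 in R 4.3.3 (lmFit, eBayes, no block) compared the groups over 24016 probe sets, leaving out 112 control probe sets, 2-sided, with Benjamini-Hochberg adjustment at 0.05. The fit was also tested on simulated data. No pairing by replicate number was seen: correlations of deviations were -0.002, -0.05 and -0.34 for like numbers and -0.28 to 0.32 for unlike numbers. With so few arrays this cannot exclude a pairing.

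The members, classes and lists were chosen with earlier results of these data known. Basement membrane genes were collagen IV, XV and XVIII, laminins and nidogens, and interstitial genes fibrillar collagens, collagen VI, fibril-associated collagens, FN1, FBN1 and ELN. Named genes were all called members, those with a difference of 1 or more or a called second probe set, a fixed set of 28 (COL4A2 and LAMA1 not analysed here), and up to 4 called genes per list. Others were named to account for every member. Alternatives covered arrays, filters, scaling, variance models, probe set choice, class limits, thresholds and the index. Figures used python 3.11.15 and matplotlib 3.10.9.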

Additional observations from a re-analysis of the deposited data

How the results depend on the processing

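With 3 arrays per group and dim signals for 9 of the 57 genes, small differences could not be resolved. All 10 called members kept their sign in every fit, which the absence of overlap fixes for the fits that leave out arrays, and 4 of them kept their call without any 1 array. Of 189 comparisons of a called member with an alternative, 149 kept the call. Leaving out 1 array gave 0 to 2 members higher and 4 to 7 lower. The basement membrane median ran from -0.08 to 0.025, the interstitial median from -0.265 to -0.028 and their difference from -0.048 to 0.29. With the RNA quality index in the model there were 0 higher, 2 lower, a basement membrane median of -0.19, a difference of -0.093 between classes and 1 partner gene called. Array weights gave 5 higher, an interstitial median of -0.0087 and a difference of -0.036. An adjusted p of 0.01 gave 0 higher and 3 lower. A filter at the median signal gave class medians of 0.08 and 0.01. Wide classes gave an interstitial median of -0.01 and a difference of -0.073, and the class means were -0.17 and -0.30. Leaving out large-follicle replicate 1 and small-follicle replicate 3 gave 1 higher and 10 partner genes called, with PLOD1, FKBP10, P4HA2, MFAP2, MFAP3, ITGB3, PTK2 and FBLN1 among those that lost their call. With the replicate block, though no pairing by number was seen, 2 members were higher and 6 lower. SPARC and TIMP3 lost their calls (adjusted p = 0.0847 and 0.0689 in limma). Of the partner genes 15 were still called, and P4HA2 and PTK2 lost their calls (adjusted p = 0.0849 and 0.101 in limma). The cause of these shifts was not tested.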
